A study of Drosophila melanogaster with 8 samples.

Results

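The mitochondrial ribosomal protein genes were taken as every row of the deposited gene count table whose symbol began with mRpL or mRpS and a number, which gave 72 of the 14300 genes in the table. Of these, 46 were named for the large subunit (mRpL) and 26 for the small subunit (mRpS) of the mitochondrial ribosome. They were compared between 5 libraries of Myb mutant wing discs and 3 libraries of yw67 control wing discs, the mesothoracic imaginal discs of Drosophila melanogaster male larvae in the third instar. The mutant larvae carried MH107, a null allele of the X-linked gene Myb made by mobilizing a P element, which lacks the 5′ end of Myb and also the neighbouring non-essential gene AlkB and is lethal at the early pupal stage. The stock had been outcrossed into the control laboratory line, which is marked with yellow and white, and mutant males were chosen by the absence of a GFP-marked balancer. No library carried a Myb transgene, so a gene's response to the deletion could not be set against a rescued disc.

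Sources differed on how far the libraries were independent. The protocol text counted 5 mutant and 3 control biological replicates, whereas the sample descriptions put mutant library 1 in one biological replicate, mutant libraries 2 to 5 in another, and all 3 control libraries in a single one as technical replicates. The p-values below accordingly reflect variation among libraries that may be technical.

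Mitochondria make a handful of respiratory chain subunits from their own genome, on a ribosome whose RNAs come from that genome and whose proteins are all encoded in the nucleus, made in the cytosol and imported. Part of these proteins descend from bacterial ribosomal proteins and keep their numbers, and part are found in mitochondrial ribosomes only. In Drosophila, mutations in some of these genes, such as bonsai and tko, slow larval growth. Myb is a DNA-binding subunit of the dREAM complex and is best known for activating genes of mitosis.

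The labels were first checked against the targeted locus. Myb had 7.24, 5.36, 6.69, 4.56 and 5.09 CPM (counts relative to the library total after TMM scaling) in Myb mutant libraries, against 302, 295 and 305 CPM in controls (log2 fold change -5.70 ± 0.14 SE, adjusted p = 1.81e-08 by edgeR's quasi-likelihood test with Benjamini-Hochberg adjustment, the test used for every adjusted p below). AlkB was at 0 in all 5 mutant libraries, against 7.21, 7.37 and 8.39 CPM in controls. All 7 wing disc marker genes were detected, with summed levels of 1818 to 1892 CPM in mutant and 1480 to 1950 CPM in control libraries. Library totals ran between 50562199 and 65322440 counts. Among controls, library 2 stood apart: its median coefficient of variation over tested genes was 9.56% against library 1 and 10.7% against library 3, where libraries 1 and 3 had 4.00% between them and any 2 mutant libraries had 3.15% to 4.91%. Its effect on these genes is given below beside the results that it touched.

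All 72 genes were detected in all 8 libraries, with 68 to 8171 counts per gene and library, and all passed the filter on low counts. Per kilobase of annotated exon, their mean level over the 8 libraries had a median of 38.1 CPM per kb and an interquartile range of 26.3 to 47.1 CPM per kb. Medians by subunit were 38.6 CPM per kb for the large and 35.6 CPM per kb for the small subunit. mRpL12, the bacterial-type protein that forms the flexible stalk where translation factors bind, had the highest level at 118 ± 13.7 CPM per kb (SD over the 8 libraries). mRpL30 followed with 87.4 ± 5.56 CPM per kb and mRpS22, a mitochondria-specific protein, with 78.3 ± 7.09 CPM per kb. The bars of mRpL30 and mRpS22 overlapped. At the other end were mRpL33 with 5.30 ± 1.05 CPM per kb, mRpS14 with 12.1 ± 1.84 CPM per kb and mRpL27 with 13.9 ± 2.04 CPM per kb, and the bars of the last 2 overlapped. Counts per kilobase thus differed widely among genes whose proteins share 1 particle. Lengths came from BDGP6 and counts from exons of an older gene set, and bases shared with other genes were not subtracted. The order of the genes is therefore only a rough guide to RNA level.

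In Myb mutant discs 26 of the 72 genes (36.1%) were lower and 1 was higher. Among all 9076 tested genes, 17.5% were lower, 16.9% were higher and 34.4% were called in either direction. Among the 2918 other tested genes with a mean CPM between the 10th and 90th percentile of the 72, 21.2% were lower and 17.6% higher. The 26 lowered genes changed little, by -9.93% to -30.9%, with a median log2 fold change of -0.22, against -0.29 for all lowered genes of the genome. None of the 72 changed as much as 1.5-fold, and 84.3% of tested genes stayed under that fold too. The median log2 fold change over the 72 genes was -0.15 with an interquartile range of -0.21 to -0.04, against 0.01 and -0.16 to 0.20 over all tested genes, and 65 of the 72 values were below 0. Genotypes did not overlap, in either direction, for 26 of the 72 genes, a share close to the 38.9% of all tested genes, but the mutant libraries lay below for 25 of these 26, or 34.7% of the 72, where 19.3% of tested genes had that order. In bulk discs, less RNA per cell and fewer cells of a type that is rich in these RNAs cannot be told apart.

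**Figure D1:**
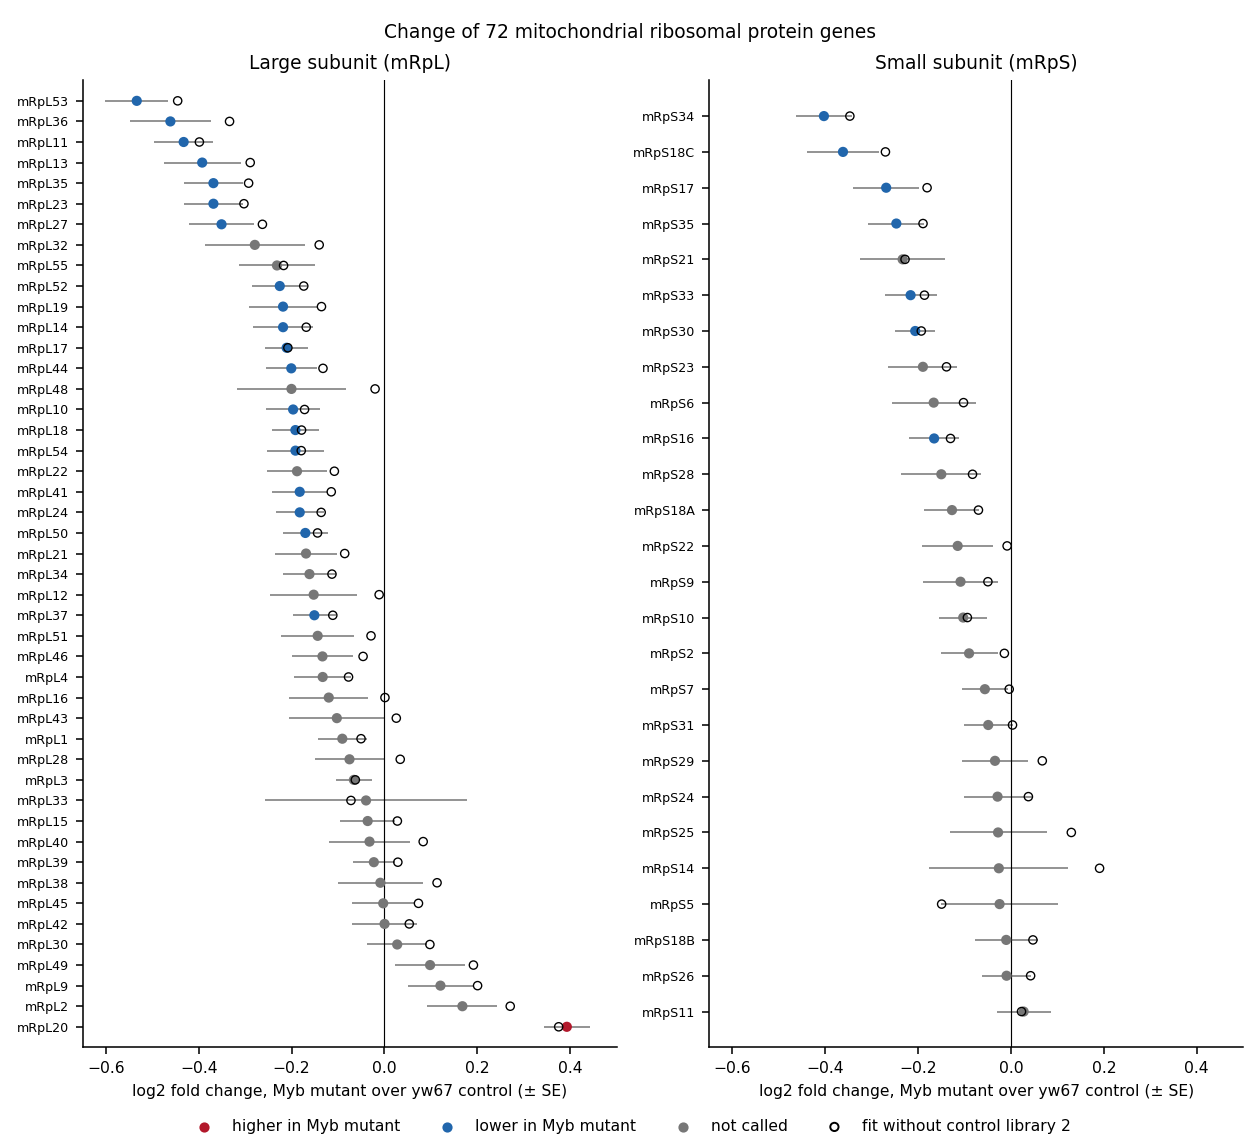
Log2 fold change (x axis, Myb mutant over yw67 control, bars are SE) of the 46 large-subunit and 26 small-subunit genes, one row per gene. Blue marks the 26 genes that were lower, red the 1 that was higher and grey those not called, and open circles give the fit without control library 2, most of which lie to the right of the filled points.

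How far these counts rested on control library 2 was examined next. Of the 72 genes, 60 had their highest level of all 8 libraries in that library, and the median gene lay 0.20 (log2) above the mean of the other controls there, while the median of all tested genes lay 0.01 above. The summed level of the 72 genes was 2362, 2457, 2378, 2521 and 2455 CPM in Myb mutant libraries, against 2531, 2907 and 2508 CPM in controls. Mutant library 4 lay above control library 3, so the sums overlapped, and the sum of control library 2 was well above the other 7. Without control library 2, 17 genes were lower, all of them among the 26, where 19.1% of tested genes were lower, and 4 were higher, where 18.4% of tested genes were. The median log2 fold change was then -0.08, and 50 of 72 values were below 0. Leaving out mutant library 3 gave 16 lowered genes, where 13.9% of tested genes were lower, and leaving out mutant library 5 gave 14, where 13.2% were, each with 1 higher gene. When counts were added up within each biological replicate that the sample descriptions name, 7 genes were lower (mRpL53, mRpL36, mRpS34, mRpL13, mRpL35, mRpL23 and mRpS17), where 7.53% of tested genes were, and mRpL20 was the 1 higher gene. That fit took its spread from 2 mutant sums and assumed the single control sum to vary like them.

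**Figure D2:**
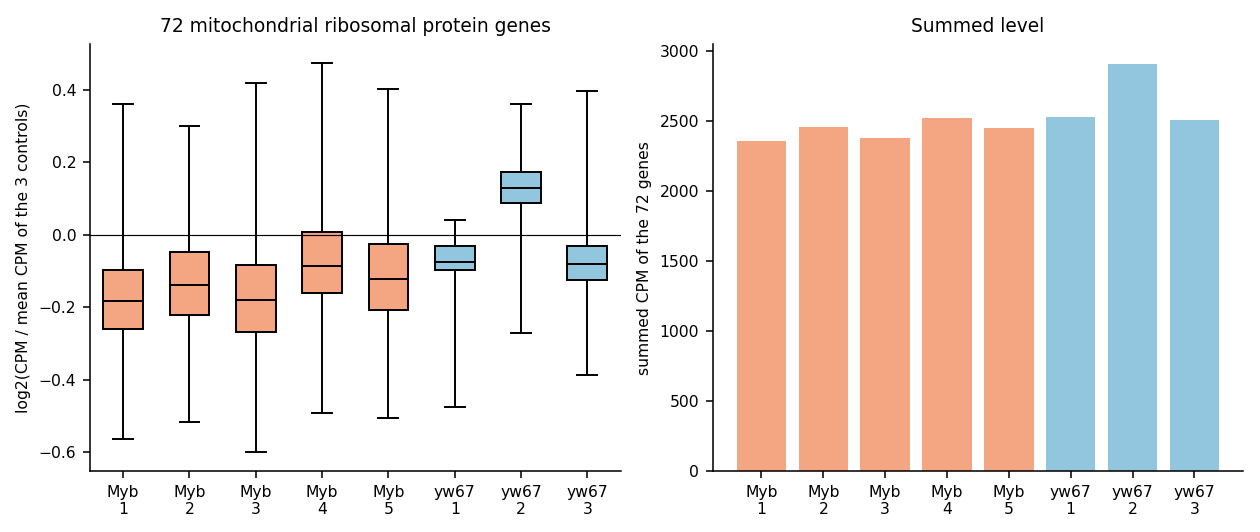
Left, log2 ratio of each of the 72 genes to its mean over the 3 controls, by library (boxes are quartiles with the median, whiskers the full range). Right, summed level of the 72 genes in CPM. Boxes of the 5 mutant libraries have medians of -0.18 to -0.09, control libraries 1 and 3 have medians of -0.08, and control library 2 has a median of 0.13 and the tallest bar.

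Lowered genes were found under both subunit names, where 17.5% of all tested genes were lower and 16.9% higher. The split here is by gene name. mRpS30 and mRpS18A, whose mammalian counterparts sit in the large subunit, are therefore counted as small-subunit genes, also in the ratio below. Of the 46 large-subunit genes, 19 (41.3%) were lower and 1 was higher, with a median log2 fold change of -0.17. Of the 26 small-subunit genes, 7 (26.9%) were lower and none was higher, with a median of -0.11. No test was run of the difference between subunits, and it depended on control library 2. Without that library 17 genes were lower, where 19.1% of tested genes were. The calls lost were those of mRpL10, mRpL14, mRpL19, mRpL24, mRpL37, mRpL41, mRpL50 and mRpL54, and in the small subunit that of mRpS16 alone. The lowered shares of the subunits were then closer to each other. The ratio of the summed large-subunit to the summed small-subunit level was 1.71 to 1.73 in mutant and 1.65 to 1.76 in control libraries, so the balance of the subunits overlapped. By descent, 15 of 45 bacterial-type genes were lower (median -0.15) and 11 of 27 mitochondria-specific genes were (median -0.14).

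mRpL20, whose bacterial counterpart binds the large ribosomal RNA early in assembly, was the only gene that was higher with all libraries. It had 27.3, 26.2, 28.4, 29.5 and 28.1 CPM in Myb mutant libraries, against 21.5, 20.9 and 21.4 CPM in controls (log2 fold change 0.39 ± 0.05 SE, adjusted p = 0.00043). The genotypes were well separated and control library 2 was not high here. The call held in each fit that left out 1 library, where the largest adjusted p was 0.00324. The gene (FBgn0036335) lies on chromosome arm 3L from 13017149 to 13017867 in BDGP6.

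mRpL53, a mitochondria-specific protein of the large subunit, showed the largest fall. It had 23.1, 23.9, 22.5, 24.4 and 24.002 CPM in mutant libraries, against 31.9, 38.4 and 32.0 CPM in controls (log2 fold change -0.53 ± 0.07 SE, adjusted p = 0.000485), and without control library 2 the log2 fold change was -0.45. All 5 mutant libraries lay below all controls by a wide margin. The gene (FBgn0050481, on chromosome arm 2R from 13954195 to 13955664 in BDGP6) is not read on its own here. In BDGP6 all bases of its exons also belong to exons of CG33155 on the same strand. Reads were counted on exons of an older gene set, whose overlaps are not known here. CG33155 was lower as well, at 26.7 ± 0.769 CPM in mutant and 36.4 ± 4.35 CPM in control libraries (SD, n = 5 and 3; log2 fold change -0.44 ± 0.07 SE, adjusted p = 0.00177).

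Next came bacterial-type proteins of the large subunit. mRpL36, a very small protein in bacteria, had 19.6, 19.6, 20.2, 21.0 and 21.4 CPM in mutant libraries, against 25.8, 33.0 and 25.4 CPM in controls. Its log2 fold change was -0.46 ± 0.09 SE with all libraries (adjusted p = 0.00421) and -0.33 without control library 2 (adjusted p = 0.00194), with no overlap between genotypes. mRpL11, which with mRpL10 and mRpL12 forms the region that activates translation factors, had 10.3, 10.3, 10.8, 11.8 and 11.3 CPM in mutant libraries, against 14.6, 15.5 and 14.0 CPM in controls (log2 fold change -0.43 ± 0.06 SE, adjusted p = 0.0011). Here control library 2 was close to the others, and leaving it out gave -0.40. The 3 genes of that region did not move alike in size. mRpL10, the stalk's base, averaged 23.0 ± 1.24 CPM in mutant and 26.4 ± 1.28 CPM in control libraries (log2 fold change -0.20 ± 0.06 SE, adjusted p = 0.0287) and its call was lost in 5 of the 8 fits that left out 1 library. mRpL12 had 78.5, 86.8, 81.4, 84.5 and 86.2 CPM in mutant libraries, against 86.9, 111 and 80.8 CPM in controls, so the genotypes overlapped (log2 fold change -0.15 ± 0.09 SE, adjusted p = 0.236, and -0.01 without control library 2).

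mRpL13, an early-binding protein in bacterial assembly, had 21.8, 23.0, 21.2, 19.9 and 21.0 CPM in mutant libraries, against 24.9, 32.2 and 27.2 CPM in controls (log2 fold change -0.39 ± 0.08 SE, adjusted p = 0.00709). In BDGP6 its exons share 236 of 671 bases on the same strand with CG10602, which was lower by less (log2 fold change -0.17 ± 0.05 SE, adjusted p = 0.0206). mRpL35, another bacterial-type protein, had 18.5, 20.3, 19.1, 19.0 and 19.5 CPM in mutant libraries, against 23.3, 27.6 and 23.7 CPM in controls (log2 fold change -0.37 ± 0.06 SE, adjusted p = 0.00257). In both genes every mutant library lay below every control. mRpL27, whose bacterial counterpart reaches into the site of peptide bond formation, had 11.4, 11.3, 11.9, 12.2 and 11.8 CPM in mutant libraries, against 13.9, 16.8 and 14.1 CPM in controls (log2 fold change -0.35 ± 0.07 SE, adjusted p = 0.00536). Without control library 2 the log2 fold changes of mRpL13, mRpL35 and mRpL27 were -0.29, -0.29 and -0.26, all still called.

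The proteins around the exit of the peptide tunnel, known from bacterial ribosomes, differed in size of change. mRpL23 had 26.6, 25.4, 25.7, 27.6 and 24.8 CPM in mutant libraries, against 31.2, 36.8 and 32.7 CPM in controls, with no overlap (log2 fold change -0.37 ± 0.06 SE, adjusted p = 0.00246). mRpL24 averaged 23.9 ± 0.639 CPM in mutant and 27.2 ± 1.79 CPM in control libraries (log2 fold change -0.18 ± 0.05 SE, adjusted p = 0.0251), and the call was lost in 5 of the 8 fits that left out 1 library (largest adjusted p = 0.0624). mRpL22 averaged 42.2 ± 1.69 CPM in mutant and 48.1 ± 4.86 CPM in control libraries and did not pass (adjusted p = 0.054), although its libraries did not overlap. mRpL17 was lower, at 29.8 ± 1.10 CPM in mutant and 34.4 ± 1.25 CPM in control libraries (log2 fold change -0.21 ± 0.05 SE, adjusted p = 0.00892), and its call was kept in each fit that left out 1 library. mRpL45, which in mammals ties the exit site to the inner membrane, averaged 78.8 ± 3.84 CPM in mutant and 78.9 ± 8.09 CPM in control libraries (adjusted p = 0.981).

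**Figure D3:**
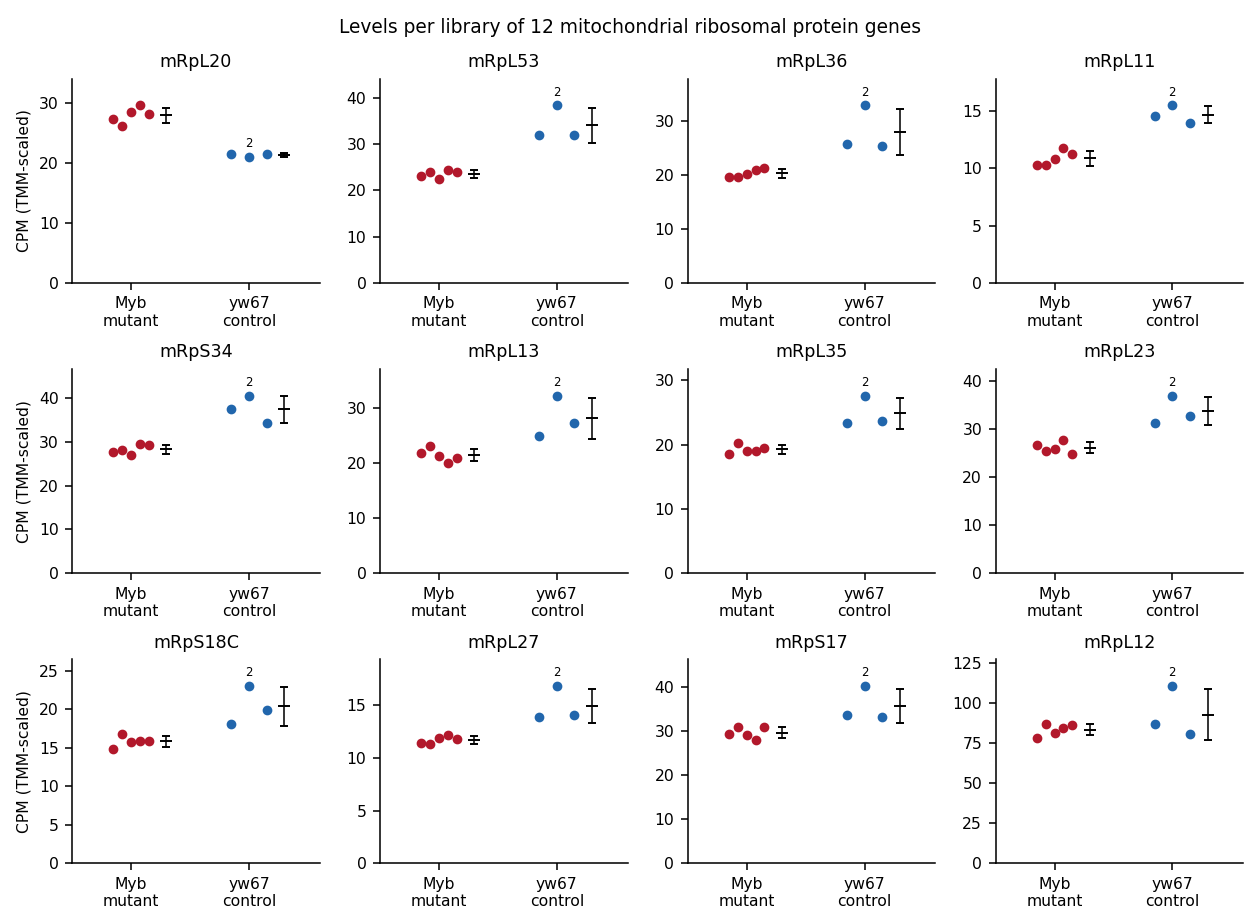
Level in CPM (y axis, from 0) of mRpL20, the 10 genes with the largest falls among those that passed the test and mRpL12 in each library, Myb mutant left (red, 5 points) and yw67 control right (blue, 3 points, control library 2 marked), with mean ± SD beside them. The genotypes are separate in every panel but that of mRpL12.

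Large-subunit genes in which the genotypes did not overlap but whose calls were lost on leaving out at least 1 library had smaller changes. Besides mRpL10 and mRpL24, they were mRpL52, mRpL14, mRpL44, mRpL54, mRpL41, mRpL50 and mRpL37, with log2 fold changes between -0.23 (mRpL52) and -0.15 (mRpL37) and adjusted p between 0.0184 and 0.044. mRpL44, which has the fold of a ribonuclease III, averaged 64.3 ± 1.29 CPM in mutant and 73.9 ± 6.79 CPM in control libraries and was still lower without control library 2 (log2 fold change -0.13, adjusted p = 0.0139), but not without mutant library 3 or 5. Levels of mRpL37 averaged 42.3 ± 1.13 CPM in mutant and 46.9 ± 2.57 CPM in control libraries. mRpL19 passed the test with overlapping libraries (log2 fold change -0.22 ± 0.07 SE, adjusted p = 0.0459) and lost its call in 7 of the 8 fits that left out 1 library (largest adjusted p = 0.112), and mRpL18 was lower in each fit that left out 1 library (-0.19 ± 0.05 SE).

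mRpL2 and mRpL3, whose bacterial counterparts lie near the catalytic centre, were not called, whereas mRpL27, given above, was lower. mRpL2 had 67.6, 73.4, 68.1, 74.3 and 71.2 CPM in mutant libraries, against 59.9, 72.3 and 57.2 CPM in controls (log2 fold change 0.17 ± 0.08 SE, adjusted p = 0.119). Control library 2 was the one control within the mutant range, and without it mRpL2 was called higher (log2 fold change 0.27, adjusted p = 0.00258), together with mRpL9 (0.20, adjusted p = 0.0257), mRpL49 (0.19, adjusted p = 0.0336) and mRpL20. mRpL3 averaged 42.3 ± 1.02 CPM in mutant and 44.3 ± 1.05 CPM in control libraries (log2 fold change -0.07 ± 0.04 SE, adjusted p = 0.215). The highly expressed mRpL30 averaged 61.3 ± 3.29 CPM in mutant and 60.1 ± 5.44 CPM in control libraries (adjusted p = 0.772). mRpL33, the lowest of the 72, had 1.83 ± 0.275 CPM in mutant and 1.88 ± 0.567 CPM in control libraries, and with an SE of 0.22 its log2 fold change of -0.04 was the least precise.

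In the small subunit, mRpS34, a mitochondria-specific protein, showed the largest fall. It had 27.8, 28.1, 27.0, 29.5 and 29.2 CPM in mutant libraries, against 37.5, 40.6 and 34.3 CPM in controls (log2 fold change -0.40 ± 0.06 SE, adjusted p = 0.00122), with no overlap. mRpS17, a bacterial-type protein that binds the small ribosomal RNA, had 29.4, 30.9, 29.2, 28.0 and 31.1 CPM in mutant libraries, against 33.8, 40.3 and 33.3 CPM in controls (log2 fold change -0.27 ± 0.07 SE, adjusted p = 0.0186). The controls were all above the mutant libraries, with control library 2 the farthest, and leaving it out gave -0.18 (adjusted p = 0.0356). mRpS35 averaged 40.6 ± 1.86 CPM in mutant and 48.2 ± 3.76 CPM in control libraries (log2 fold change -0.25 ± 0.06 SE, adjusted p = 0.0133). mRpS33 averaged 12.4 ± 0.600 CPM in mutant and 14.4 ± 0.630 CPM in control libraries (log2 fold change -0.22 ± 0.06 SE, adjusted p = 0.0174), and its call was lost without mutant library 5 (adjusted p = 0.0519). mRpS16 passed with overlapping libraries (log2 fold change -0.17 ± 0.05 SE, adjusted p = 0.0438) and lost its call in 6 of the 8 fits that left out 1 library (largest adjusted p = 0.116).

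mRpS30 was among the most precise. Its protein is named for the small subunit but sits in the large subunit of the mammalian mitochondrial ribosome. It had 115, 123, 113, 126 and 117 CPM in mutant libraries, against 136, 141 and 135 CPM in controls (log2 fold change -0.21 ± 0.04 SE, adjusted p = 0.00709). The genotypes did not overlap, control library 2 was close to the other controls, and leaving it out gave -0.19. The small-subunit genes with the highest and the lowest level per kilobase were not called. mRpS22 averaged 102 ± 4.73 CPM in mutant and 110 ± 14.3 CPM in control libraries (adjusted p = 0.278). mRpS14 averaged 9.61 ± 0.630 CPM in mutant and 9.79 ± 2.59 CPM in control libraries (adjusted p = 0.909). mRpS29, the fly counterpart of the GTP-binding protein DAP3, also did not pass (77.2 ± 2.74 CPM in mutant and 79.0 ± 9.89 CPM in control libraries, adjusted p = 0.742).

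Drosophila has several genes related to bacterial S18. mRpS18C had 14.9, 16.8, 15.8, 15.8 and 15.9 CPM in mutant libraries, against 18.1, 23.0 and 19.9 CPM in controls (log2 fold change -0.36 ± 0.08 SE, adjusted p = 0.0072). mRpS18A, whose mammalian counterpart sits in the large subunit, had 26.8, 27.9, 27.9, 28.1 and 30.0 CPM in mutant libraries, against 28.9, 33.3 and 29.9 CPM in controls (log2 fold change -0.13 ± 0.06 SE, adjusted p = 0.13). mRpS18B had 24.4, 22.2, 24.5, 25.8 and 24.9 CPM in mutant libraries, against 22.6, 26.6 and 24.4 CPM in controls (log2 fold change -0.01 ± 0.07 SE, adjusted p = 0.922). Only mRpS18C separated the genotypes, and the difference among the 3 genes was not tested.

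A further 3 genes encode mitochondrial ribosomal proteins under other names and were outside the symbol rule. tko (technical knockout, the S12 protein of the decoding site) had 29.8, 31.8, 27.0, 32.3 and 31.0 CPM in mutant libraries, against 33.2, 42.3 and 35.9 CPM in controls (log2 fold change -0.29 ± 0.09 SE, adjusted p = 0.0313). bonsai, the S15 protein, had 49.5, 46.1, 46.6, 51.1 and 47.2 CPM in mutant libraries, against 57.2, 63.1 and 54.8 CPM in controls (log2 fold change -0.28 ± 0.06 SE, adjusted p = 0.00532). Rlc1 (mRpL47) averaged 24.7 ± 0.532 CPM in mutant and 28.4 ± 3.08 CPM in control libraries (log2 fold change -0.20 ± 0.07 SE, adjusted p = 0.0461). All 3 were lower without overlap, where 17.5% of tested genes were lower and 19.3% had every mutant library below every control. With 1 library left out only 1 or 2 of the 3 passed, where 13.2% to 19.1% of tested genes were lower. Without control library 2, 1 passed, where 19.1% of tested genes were lower.

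The genes were spread over the genome. In BDGP6, 20 lay on chromosome arm 3R, 17 on 3L, 12 each on 2L and 2R, and 11 on X. On the X, 2 of 11 genes were lower (mRpS30 and mRpL14; median log2 fold change -0.04), against 24 of 61 autosomal genes (median -0.16). Over all tested genes, 11.6% of X-linked and 19.4% of autosomal genes were lower (medians 0.05 and 0.00), and the difference was not tested. Without control library 2, mRpL14 was not called (adjusted p = 0.0705), whereas mRpS30 was still lower (adjusted p = 0.00965). Both genes nearest to Myb lie upstream of it in coordinate order, mRpS30 at 68.8 kb and mRpL3 at 93.6 kb, and only the nearer was called.

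These genes are short, with a median annotated exon length of 783 bases (range 327 to 2078), and shorter genes fell more in the whole data set. Of the tested genes no longer than that median, 26.0% were lower and 8.93% higher, with a median log2 fold change of -0.13, whereas 17.4% of longer genes were lower (median 0.02). Among the 72, 16 of the 37 at or under that length were lower, against 10 of the 35 longer ones. Over the 72 genes the rank correlation of log2 fold change with exon length was 0.25, and over the 8502 tested genes with a length it was 0.27. These are given as descriptions over genes that share libraries, and the part of transcript length in the falls was not tested.

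Many mitochondrial ribosomal protein genes are head to head with another gene. A divergent partner with its start within 1000 bases was annotated for 55 of the 72, at a median distance of 290 bases, and 52 of the partners were tested. Of these partners 15 were lower and 6 higher, where 17.5% and 16.9% of all tested genes were. Where the mitochondrial gene was lower, its partner was lower in 8 cases, higher in 2 and not called in 7, and where the mitochondrial gene was not called, its partner was lower in 6 cases, higher in 4 and not called in 24. The difference was not tested. mRpL23 and its partner CG9004 (24 bases apart) were both lower (partner log2 fold change -0.48 ± 0.06 SE, adjusted p = 0.000591), as were mRpL18 and Taz (20 bases apart; -0.40 ± 0.04 SE, adjusted p = 0.000171). The higher partners of lowered genes were CG15653, next to mRpL54 (0.69 ± 0.10 SE, adjusted p = 0.000835), and mei-P22, next to mRpL50 (0.66 ± 0.17 SE, adjusted p = 0.0167). mRpL20 and its partner Icmt changed in opposite directions, Icmt having 19.6 ± 0.873 CPM in mutant and 23.98 ± 0.712 CPM in control libraries (log2 fold change -0.29 ± 0.05 SE, adjusted p = 0.00241). mRpS7 is divergent from Cdk1, the kinase that drives entry into mitosis: Cdk1 was lower at 137 ± 6.94 CPM in mutant and 193 ± 10.9 CPM in control libraries (log2 fold change -0.50 ± 0.05 SE, adjusted p = 0.000187), whereas mRpS7 had 61.1 ± 1.97 CPM in mutant and 63.6 ± 4.52 CPM in control libraries (log2 fold change -0.06 ± 0.05 SE, adjusted p = 0.414). These partners were chosen after their values were seen.

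**Figure D4:**
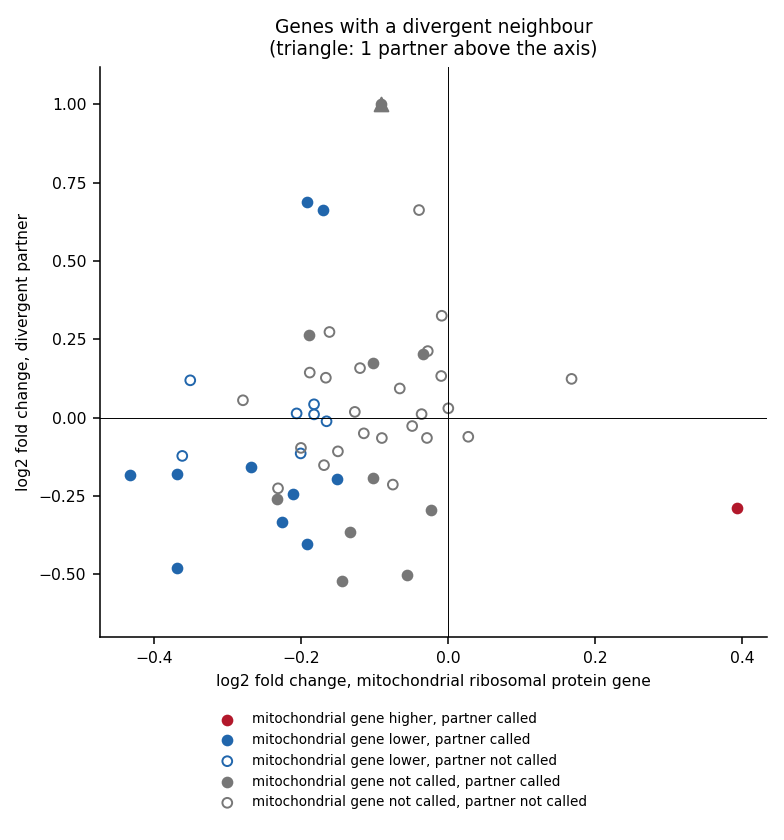
Log2 fold change (Myb mutant over yw67 control) of each mitochondrial ribosomal protein gene (x axis) and of its divergent partner (y axis) for the 52 pairs with a tested partner. Colour gives the call of the mitochondrial gene, filled points have a called partner, and the triangle is CG9626, partner of mRpL1, at 3.13. Of the 17 blue points, 8 have a lower and 2 a higher partner.

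In BDGP6, exons of 42 of the 72 genes overlap those of another gene, 41 of them on the opposite strand. Counting used exons of an older gene set, whose overlaps are not known here. Whether counting used strand is not given in the sources used here, so reads in such overlaps may belong to either gene. Of the 30 genes without any overlap, 10 were lower, and of the 42 with overlap, 16 were, where 17.5% of all tested genes were.

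Genes that work with the mitochondrial ribosome were read from the same fit, where 17.5% of all tested genes were lower and 16.9% higher. Of 9 mitochondrial translation factors 2 were lower: mEFG1 (CG4567), a translocation factor, at 37.7 ± 1.00 CPM in mutant and 47.5 ± 4.06 CPM in control libraries (log2 fold change -0.33 ± 0.06 SE, adjusted p = 0.00242), and mRF1 (CG5705), a release factor, with a log2 fold change of -0.24 ± 0.06 SE. The list's median was -0.07. Of 14 mitochondrial aminoacyl-tRNA synthetases 3 were lower and 2 higher (median -0.07), the largest change being that of the alanine enzyme Aats-ala-m (AlaRS-m; -0.46 ± 0.05 SE, adjusted p = 0.000163). Of 11 genes that transcribe and copy the mitochondrial genome 4 were lower and 1 higher (median -0.11), among them mtTFB2 (-0.40 ± 0.06 SE) and tam (PolG1; -0.36 ± 0.05 SE), the catalytic subunit of the mitochondrial DNA polymerase. With 1 library left out, 1 to 3 of the synthetases were lower and 0 to 2 higher: 1 was lower without mutant library 1, 2 or 5 or control library 2, and none was higher without control library 1. The 1 higher gene of the genome expression list was not called without mutant library 2, 3 or 5 or control library 3. Without control library 2, 1 translation factor was higher and that list's median was 0.01. The row that pools reads of the mitochondrial genome took 0.574% to 0.985% of counts in mutant and 0.679% to 1.34% in control libraries, which overlapped.

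The respiratory chain lists came next, beside the 17.5% of all tested genes that were lower and the 16.9% that were higher. In complex I, 11 of 34 tested genes were lower and 1 was higher (median -0.16), the higher one being CG15434 (ND-B8), at 0.331 ± 0.0535 CPM in mutant and 0.0122 ± 0.0211 CPM in control libraries. In complex II, 1 of 3 was lower, in complex III 4 of 8, in complex IV 4 of 11 and in ATP synthase 6 of 12, with medians of -0.19, -0.25, -0.24 and -0.20. Among them were CG7181 (COX8; -0.41 ± 0.05 SE) and Oscp (ATPsynO; -0.39 ± 0.07 SE). Of 11 import genes 6 were lower (median -0.17). Without control library 2 the medians of complexes I to IV, of ATP synthase and of import genes were -0.06, -0.09, -0.18, -0.11, -0.10 and -0.15. Cytosolic ribosomal proteins, made for the other ribosome of the cell, had 4 lower and 2 higher genes among 88 (median 0.01). They were also high in control library 2, with a summed level of 182918 CPM there and 126451 to 159516 CPM in the other 7 libraries. Without that library 49 of the 88 were higher and 4 lower (median 0.18), where 18.4% and 19.1% of tested genes were. These counts moved with single libraries. Leaving out mutant library 5 gave 6 lower genes in complex I, 2 in ATP synthase and 2 in import, where 13.2% of tested genes were lower. Over all fits that left out 1 library the same counts ran over 6 to 14, 2 to 8 and 2 to 5, where 13.2% to 19.1% of tested genes were lower. Complex IV had 7 lower genes without control library 3. None of the 4 listed regulators, Dref, CG9809 (srl), ewg and Ets97D, was called with all libraries, and without control library 2 there was 1 higher and 1 lower among them.

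**Figure D5:**
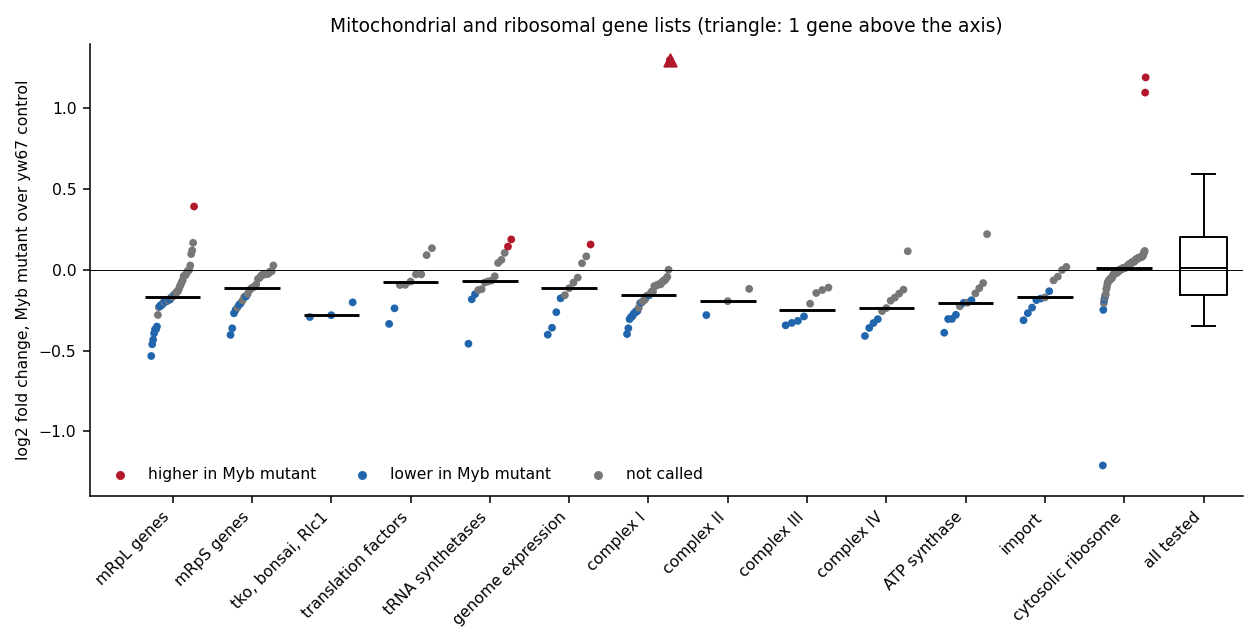
Log2 fold change (y axis, Myb mutant over yw67 control) of each tested gene by list, with the list's median as a bar, and a box of all tested genes (quartiles, whiskers at the 10th and 90th percentile). Blue genes were lower and red ones higher. The triangle is CG15434 (ND-B8), at 4.54. Medians of the mitochondrial lists lie between -0.28 and -0.07 and that of the cytosolic ribosome at 0.01.

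Markers of other cell types were read beside these values. All 6 hemocyte markers were lower in mutant discs, with summed levels of 5.77 to 19.9 CPM in mutant and 173 to 244 CPM in control libraries, and both tracheal markers were lower, at 50.5 to 56.4 CPM in mutant and 68.4 to 75.8 CPM in control libraries. Fat body markers ranged between 470 and 5230 CPM in mutant and between 74.2 and 4565 CPM in control libraries and salivary gland markers between 0.630 and 193 CPM in mutant and between 4.07 and 17.6 CPM in control libraries, with none of the 6 genes of either list called. Muscle markers, 1 of 5 of them higher, summed to 53.4 to 94.1 CPM in mutant and 50.6 to 68.8 CPM in control libraries. Adult muscle precursor markers, none called, summed to 154 to 162 CPM in mutant and 144 to 154 CPM in control libraries. The part of hemocyte and tracheal cells in the falls of the mitochondrial ribosomal protein genes was not tested.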

How the data were processed

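Polyadenylated RNA of 8 wing disc samples was sequenced by the authors. Per the labels and the study's methods, reads were trimmed with Trimmomatic (0.22 per the submitters' processing notes), aligned to exons of a FlyBase release 5 gene set with Bowtie2 (2.1.0), and unique reads were summed per gene. The authors deposited raw read counts, without normalization. The table also held their DESeq2 log2 fold changes with p-values and adjusted p-values, which were not used.

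The pooled mitochondrial row (0.574% to 1.34% of counts) was left out. Counts were fitted with edgeR 4.0.16 (R 4.3.3): filterByExpr, TMM scaling and the quasi-likelihood test with genotype as the only term, adjusted with Benjamini-Hochberg over 9076 genes at 0.05. The SE is the absolute log2 fold change over the square root of F. Alternatives used DESeq2 1.42.0, other scalings, filters and samples. The fit was checked on simulated counts. Positions, exon lengths and neighbours came from BDGP6 (Ensembl), which matched 67 of the 72 genes by identifier and 5 by symbol.

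Named genes were the called members with the largest changes (up to 10 each way), the 3 highest and 3 lowest per kb, non-overlapping members that lost their call on leaving out a library, the S18 genes, tko and bonsai, and at most 3 called genes of each other list. Other genes named with values (among them mRpL2, mRpL3, mRpL9, mRpL17 to mRpL19, mRpL22, mRpL45, mRpL49, mRpS16, mRpS29, mRpS30, mRpS35 and the neighbours) were added after their values were seen. The members and lists were chosen with earlier results of these data known.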

Additional observations from a re-analysis of the deposited data

How the results depend on the processing

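The count of lowered mitochondrial ribosomal protein genes, 26 with all libraries, was 22 to 27 under DESeq2, other scalings, other filters and with the mitochondrial row kept, and in each of these mRpL20 alone was higher. In these fits 12.5% to 17.8% of tested genes were lower and 10.7% to 17.8% higher. DESeq2 called the same 26 and mRpL22. Leaving out 1 library gave 14 to 28 lowered and 1 to 4 higher genes, where 13.2% to 19.1% of tested genes were lower and 13.1% to 18.4% higher. The median log2 fold change was then -0.18 to -0.08, and 26 to 33 genes were without overlap. The count without overlap cannot fall when a library is removed, and its share over all tested genes is not given for these fits. The median nearest to 0 and the 4 higher genes came without control library 2, and 16 and 14 lowered genes came without mutant libraries 3 and 5. The other mitochondrial and ribosomal lists, whose sizes are given above, together held 54 called genes, where 34.4% of all tested genes were called in either direction. With 1 library left out they held 30 to 98 (98 without control library 2, 49 of them cytosolic ribosomal proteins that were higher). Of the 26, 14 kept their call in every fit that left out 1 library, and the same share over all lowered genes is not given. With counts summed by the described biological replicates, 7 genes were lower and the other lists held 30 calls, where 7.53% of tested genes were lower and 7.31% higher. A replicate block over libraries 1 to 3 gave 10 lowered genes (9 of the 26), 1 higher and 18 calls in the other lists. In that fit 7.26% of tested genes were lower and 8.3% higher. The same libraries without the block, an alternative chosen after seeing the data, gave 18 lowered genes and 26 calls in the other lists. There, 11.5% of tested genes were lower and 11.5% higher. Same-numbered libraries deviated together with r of 0.35, -0.07 and -0.01, so the numbers were not taken as pairs. No called value changed sign. mRpL33, at 68 counts in its lowest library, was the least precise gene.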
